A study of Mus musculus with 4 samples.

Results

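The vacuolar proton pump (V-ATPase) was followed in mouse liver through its subunit genes, chosen as every probe set whose single gene symbol in the platform annotation is 1 of 10 listed subunits. Of these, 9 genes had such a probe set, with 24 probe sets in all out of 45037 on the array. No probe set carried Atp6v0c as its single symbol, so the subunit described as the partner of LASS2 was not analysed here. This rule did not use their measured values, though the members were chosen with earlier results of these data known.

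The arrays measured liver RNA of male mice in 4 groups of 1 array each, namely LASS2-/- mice on a high-fat diet (HFD), wild-type (WT) mice on HFD, LASS2-/- mice on chow and WT mice on chow. HFD held 60% of calories as fat and chow 10%, and the diets began at 3 weeks of age in every group. LASS2-/- denotes loss of Lass2, now named Cers2, the gene of an enzyme that joins long fatty acids to sphingoid bases to form ceramides. The labels give neither the strain, the age at sampling, the design of the deleted allele nor whether RNA of several mice was pooled. With 1 array per group there is no spread between animals behind any value.

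The V-ATPase uses ATP to pump protons into lysosomes, endosomes and secretory vesicles. Its peripheral V1 sector hydrolyses ATP and drives a rotor, and its membrane-embedded V0 sector carries the protons. In liver, acid lysosomes digest endocytosed receptors, lipoproteins and lipid droplets. Human LASS2 has been reported to bind the V0 proteolipid subunit c, which Atp6v0c encodes, and this is the link between the deleted gene and the pump.

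Cers2, the targeted gene, had log2 signals of 12.31 on the array labelled LASS2-/- HFD, 12.25 on WT HFD, 12.32 on LASS2-/- chow and 12.46 on WT chow. On HFD its signal was slightly higher with the LASS2-/- label and on chow slightly lower. Whether these probes lie inside or outside the deleted sequence was not determined, so they check neither label. Every genotype direction below rests on the labels alone. Hepatocyte markers were bright on all arrays, with Alb, which encodes albumin, between 15.02 and 15.27 log2. Alb, Hnf4a and, below, Lyz2 were named after their values were seen. The summed linear signal of the hepatocyte list over 7 of 8 listed genes was 234050 (LASS2-/- HFD), 243521 (WT HFD), 285940 (LASS2-/- chow) and 268953 (WT chow), and 3 of them fell with HFD, with differences of -0.41 log2 for Cps1, the urea cycle's first enzyme, -0.375 for Fgb, a fibrinogen chain, and -0.32 for the transcription factor Hnf4a, where 4.29% of all genes, each by its brightest probe set, were called lower. The call of Hnf4a was lost under 5 of 7 alternative settings (limma adjusted p from 0.024 to 0.484). Its probe sets 1427000_at and 1421983_s_at were also called lower as deposited, by -0.38 and -0.49 log2 (limma adjusted p = 0.0211 and 0.0254). The remaining Hnf4a probe set was not called. The list's median diet and genotype differences were -0.18 and 0.01 log2. Of 10 macrophage markers, 2 rose with the LASS2-/- label, Marco by 2.48 and Mpeg1 by 0.83 log2, where 0.304% of all genes were called higher, and 9 had an unadjusted p under 0.05 in limma, against 10.3% of all genes. The calls of Marco and of Mpeg1 were each lost under 2 of 8 alternatives, and the list's median genotype difference was 0.43 log2. A dimmer probe set of Marco, 1458297_s_at, was also called higher as deposited, by 2.08 log2 (limma adjusted p = 0.00615). The summed signal of this list was 39830 (LASS2-/- HFD), 25531 (WT HFD), 31876 (LASS2-/- chow) and 25645 (WT chow), and none of its markers was at 0. The part of these cells in any value below was not tested.

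Several members shared a promoter feature that their choice did not use. RefSeq's promoter table for GRCm38.p6, which runs from 250 bases before to 50 after each start, held 6 of the 9 measured genes. The letters TCACGTG or their reverse complement CACGTGA, an extended E-box and the core of the element bound by TFEB, the regulator of lysosome genes, lay in 4 of these 6 promoters and in 3.77% of all 32851 promoters of that length. The core CACGTG alone lay in the same 4 and in 7.15% of all. These 4 promoters are shown 5′ to 3′ with the extended E-box in capitals.
Atp6v1a (chr16:44139210-44139509, minus strand): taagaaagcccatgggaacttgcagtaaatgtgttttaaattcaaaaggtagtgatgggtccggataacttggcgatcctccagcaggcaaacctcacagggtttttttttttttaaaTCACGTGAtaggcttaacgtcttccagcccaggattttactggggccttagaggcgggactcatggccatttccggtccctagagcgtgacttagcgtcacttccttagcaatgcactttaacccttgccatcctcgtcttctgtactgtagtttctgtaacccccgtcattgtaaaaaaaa
Atp6v0b (chr4:117887280-117887579, minus strand): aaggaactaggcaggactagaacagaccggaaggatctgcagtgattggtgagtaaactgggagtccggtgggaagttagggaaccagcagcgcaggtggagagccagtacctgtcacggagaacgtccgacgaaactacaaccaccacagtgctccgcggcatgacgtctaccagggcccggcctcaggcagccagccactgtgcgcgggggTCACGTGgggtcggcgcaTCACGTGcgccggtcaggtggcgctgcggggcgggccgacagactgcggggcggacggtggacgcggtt
Atp6v0d1 (chr8:105566015-105566314, minus strand): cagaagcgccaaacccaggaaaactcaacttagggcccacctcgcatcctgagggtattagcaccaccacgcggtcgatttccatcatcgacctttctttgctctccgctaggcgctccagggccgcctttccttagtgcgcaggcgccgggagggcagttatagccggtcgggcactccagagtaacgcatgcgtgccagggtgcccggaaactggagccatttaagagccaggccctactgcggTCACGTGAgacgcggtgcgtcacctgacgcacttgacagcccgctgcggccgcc
Atp6v0e (chr17:26676146-26676445, plus strand): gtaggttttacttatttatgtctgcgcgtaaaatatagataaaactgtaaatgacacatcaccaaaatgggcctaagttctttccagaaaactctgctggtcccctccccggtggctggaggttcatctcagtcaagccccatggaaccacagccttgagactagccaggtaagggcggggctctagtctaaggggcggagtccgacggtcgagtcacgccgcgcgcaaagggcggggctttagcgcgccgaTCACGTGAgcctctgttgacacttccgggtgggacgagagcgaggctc
Counted from the start, with the first transcribed base as 1, the capitals begin at -132 in Atp6v1a, at -37 and -19 in Atp6v0b, at -4 in Atp6v0d1 and at 3 in Atp6v0e. In Atp6v1a, Atp6v0d1 and Atp6v0e the letters read the same on both strands as 1 site of overlapping matches, while Atp6v0b has a pair of sites. The windows of Atp6v1d and Atp6v1e1 did not hold these letters, and neither did those of Atp6v0c, the listed member without a probe set. Counting it, the letters lay in 4 of 7 listed members with an entry. Among the other subunits with an entry none held them. Of the other motifs searched on both strands, the GC box GGGCGG lay in 4 of the 6 promoters (Atp6v0b, Atp6v0e, Atp6v1d and Atp6v1e1) and in 35.7% of all, CCAAT in 2 of 6 and 37.4%, and TATAAA in 1 of 6 and 13.6%. A match is a description of the sequence and not a measured site of binding.

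None of the 9 measured genes passed the test for diet or for genotype. Of the 24 probe sets, 20 reached their array's median signal on at least 1 array and entered the comparisons, and 15 of these lay above the upper quartile of mean signal over all probe sets, a log2 signal of 8.50. In limma's additive model of diet and genotype, which takes the difference of the genotype ratio between the diets as its error, 0 of 20 passed for genotype and 0 of 20 for diet at an adjusted p under 0.05. Over all 26035 probe sets that entered, 0.242% were called higher and 0.108% lower with the LASS2-/- label, and 3.89% higher and 3.62% lower with HFD. At an unadjusted p under 0.05, 0 of 20 members passed for genotype, against 8.62% of all probe sets, and 4 of 20 for diet, against 20.4%. Among the brighter probe sets alone these were 0 of 15 for genotype, against 12.5%, and 4 of 15 for diet, against 32.2%. Over 8 alternative settings the lowest adjusted p of any member probe set was 0.0522 for diet and 0.479 for genotype. In simulated data with a true diet change of 0.5 log2, 7 of 25 bright probe sets and 0 of 25 others passed. Only a small share of the simulated probe sets was changed, which makes the adjusted threshold stricter than in the data. In the data, 1423255_at of Atp6v1g1, at a mean signal of 11.50 log2, passed for diet with -0.47 log2 (limma adjusted p = 0.0253). Probe set 1415814_at of Atp6v1b2, at 9.55 log2, did not pass with 0.48 log2 (limma adjusted p = 0.0763). How many real changes of that size would be missed cannot be read from this simulation. In whole liver, fewer cells of a type and less RNA per cell cannot be told apart.

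**Figure D1:**
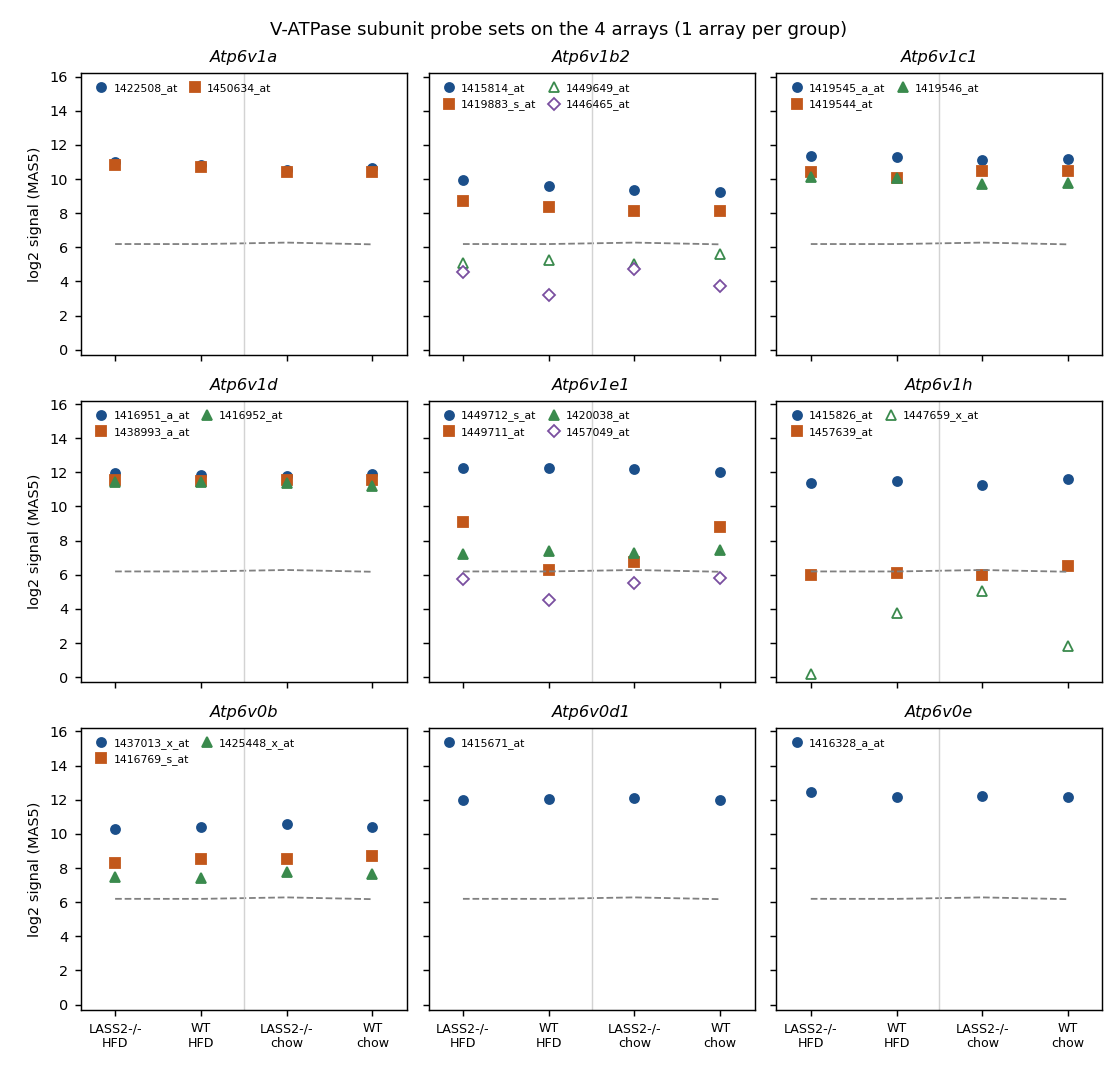
MAS5 log2 signal (vertical axis) of the 24 member probe sets on each array (horizontal axis), 1 panel per gene, with 1 symbol per probe set. Filled symbols are the 20 probe sets that entered, open ones the 4 under the array median (dashed line) on all arrays, and the filled squares of Atp6v1e1 are the entered probe set with the widest range, 6.29 to 9.11.

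For both genes of the V1 catalytic head, the HFD arrays lay above the chow arrays. Atp6v1b2 encodes the B subunit that pairs with the catalytic A subunit in the ATP-hydrolysing ring. Its brightest probe set, 1415814_at, had log2 signals of 9.96 on LASS2-/- HFD and 9.61 on WT HFD, against 9.34 on LASS2-/- chow and 9.27 on WT chow. Both HFD arrays lay above both chow arrays, and HFD over chow was 1.54-fold in LASS2-/- and 1.26-fold in WT. The mean diet difference was 0.48 ± 0.15 log2 (moderated SE; 95% interval 0.15 to 0.80), which did not pass over all probe sets (limma adjusted p = 0.0763). A second Atp6v1b2 probe set, 1419883_s_at, had 8.70 and 8.34 on the HFD arrays of LASS2-/- and WT, and 8.12 and 8.15 on their chow arrays. Its diet groups did not overlap either, and its mean difference was 0.39 log2 (limma adjusted p = 0.299). The ending _s_at marks probes that can match other transcripts. The remaining probe sets of Atp6v1b2, 1449649_at and 1446465_at, ranged from 3.21 to 5.59, stayed under the array median throughout and gave no ratio.

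Atp6v1a encodes the catalytic A subunit. Probe set 1422508_at had log2 signals of 11.03 on LASS2-/- HFD, 10.82 on WT HFD, 10.56 on LASS2-/- chow and 10.66 on WT chow. Probe set 1450634_at had 10.83, 10.73, 10.41 and 10.43 on the same arrays. In both probe sets the HFD arrays lay above the chow arrays. The mean diet differences were 0.31 log2 (95% interval 0.05 to 0.58, limma adjusted p = 0.165) for 1422508_at and 0.36 log2 (95% interval 0.10 to 0.62, limma adjusted p = 0.101) for 1450634_at.

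Atp6v1c1 encodes the C subunit, a stalk component that links V1 to V0 and is released when the pump comes apart. Its probe sets disagreed on diet. Probe set 1419546_at had log2 signals of 10.12 on LASS2-/- HFD and 10.09 on WT HFD, against 9.73 on LASS2-/- chow and 9.78 on WT chow, a mean difference of 0.35 log2 (limma adjusted p = 0.151). Probe set 1419545_a_at lay on the same side, at 0.17 log2 (limma adjusted p = 0.425). Probe set 1419544_at lay on the other side, with 10.42 on LASS2-/- HFD and 10.06 on WT HFD, against 10.49 on each chow array, a mean difference of -0.25 log2 (limma adjusted p = 0.335). No direction with diet can be given for Atp6v1c1.

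Atp6v1d encodes subunit D of the central rotor, and its 3 probe sets, which ranged from 11.21 to 11.94 over all arrays, had mean diet differences of -0.04 to 0.14 log2. Atp6v1e1 encodes subunit E of the peripheral stalk. Its brightest probe set, 1449712_s_at, had 12.28 on LASS2-/- HFD, 12.23 on WT HFD, 12.20 on LASS2-/- chow and 12.03 on WT chow, a mean diet difference of 0.14 log2 (95% interval -0.07 to 0.35). The name of this probe set also ends in _s_at. Atp6v1h encodes the regulatory H subunit, which holds back ATP hydrolysis in detached V1. Its probe set 1415826_at had 11.39 on LASS2-/- HFD, 11.50 on WT HFD, 11.26 on LASS2-/- chow and 11.60 on WT chow. Both arrays labelled LASS2-/- lay below both WT arrays, with a mean genotype difference of -0.23 log2 (95% interval -0.47 to 0.01, limma adjusted p = 0.602). A second Atp6v1h probe set, 1457639_at, reached its array median only on WT chow, so that its fitted genotype effect of -0.29 log2 (95% interval -1.46 to 0.88) comes from signals mostly under it. The third, 1447659_x_at, ranged from 0.21 to 5.03 under the medians and gave no ratio.

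The other probe sets of Atp6v1e1 differed from the brightest. Probe set 1449711_at had log2 signals of 9.11 on LASS2-/- HFD, 6.29 on WT HFD, 6.74 on LASS2-/- chow and 8.78 on WT chow. LASS2-/- over WT was thus 7.08-fold higher on HFD and 4.13-fold lower on chow, with a mean genotype difference of 0.39 log2 (95% interval -1.18 to 1.96). Probe set 1420038_at, which the platform annotation ties to the same accession, had 7.23, 7.41, 7.28 and 7.47 in that order, and the brightest probe set of the gene stayed between 12.03 and 12.28. The remaining probe set, 1457049_at, stayed between 4.51 and 5.82 under the medians.

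In the membrane sector V0, the mean diet differences lay on either side of 0. Atp6v0b encodes the c'' proteolipid of the proton-carrying ring, and all of its probe sets have names ending in _s_at or _x_at, which mark probes that can match other transcripts. Probe set 1437013_x_at had log2 signals of 10.31 on LASS2-/- HFD and 10.38 on WT HFD, against 10.55 on LASS2-/- chow and 10.42 on WT chow. Probe set 1425448_x_at had 7.48 and 7.43 on the HFD arrays of LASS2-/- and WT, and 7.79 and 7.64 on their chow arrays. In these probe sets the HFD arrays lay below the chow arrays, and 1416769_s_at had its lowest value, 8.28, on LASS2-/- HFD. The mean diet differences of the 3 were -0.14, -0.26 and -0.21 log2, with limma adjusted p = 0.599, 0.611 and 0.568.

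Atp6v0d1 encodes subunit d, which couples the central rotor to the proteolipid ring. It had 12.00 on LASS2-/- HFD, 12.02 on WT HFD, 12.12 on LASS2-/- chow and 11.99 on WT chow, and neither diet nor genotype separated the arrays. Atp6v0e encodes the small membrane subunit e. It had 12.47 on LASS2-/- HFD and 12.17 on WT HFD, against 12.23 on LASS2-/- chow and 12.15 on WT chow. Both arrays labelled LASS2-/- lay above both WT arrays, with a mean genotype difference of 0.18 log2 (95% interval -0.03 to 0.40, limma adjusted p = 0.678).

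**Figure D2:**
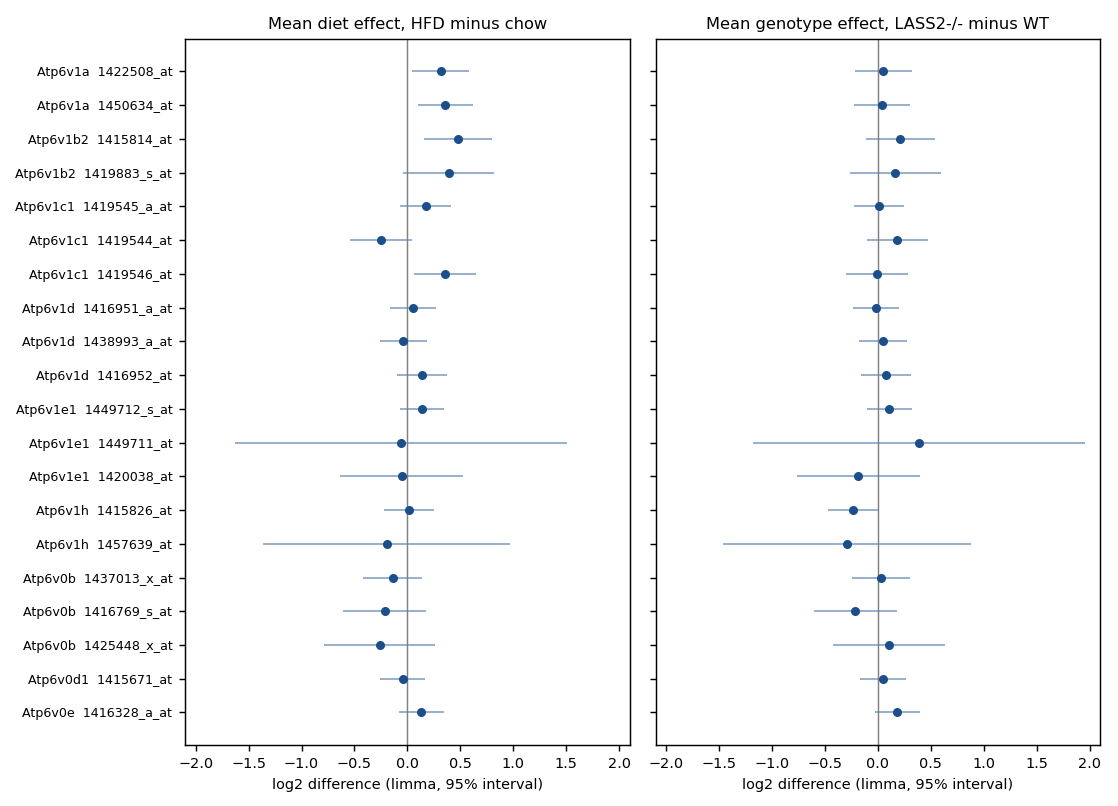
Mean diet effect (left, HFD minus chow) and mean genotype effect (right, LASS2-/- minus WT) in log2 for the 20 member probe sets that entered, with limma's 95% intervals, V1 subunits above V0 subunits. The diet values run from -0.26 to 0.48 and the genotype values from -0.29 to 0.39, and the widest intervals belong to 1449711_at of Atp6v1e1 and 1457639_at of Atp6v1h.

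Taking the diet comparison over the family, the HFD arrays lay above both chow arrays in 8 of 20 probe sets, from 5 genes, where 23.9% of all probe sets did so. They lay below both in 3 of 20, against 24.9% of all. Among the brighter probe sets these were 7 of 15, against 27.6%, and 2 of 15, against 30.5%. The median ratio of HFD over chow was 0.10 log2 in LASS2-/- and -0.01 in WT, beside medians over all probe sets of -0.05 and 0.02. At least 1.5-fold higher on HFD in LASS2-/- were 3 of 20, against 8.58% of all. They were both entered probe sets of Atp6v1b2, of which 1419883_s_at sat just at the threshold with 0.59 log2, and 1449711_at of Atp6v1e1. With quantile normalization the count was 2 of 20. In WT 0 of 20 were 1.5-fold higher, against 7.34%, and only 1449711_at was 1.5-fold lower, against 6.4%. In LASS2-/- 0 of 20 were 1.5-fold lower, against 8.25%. In probe sets above the upper quartile of signal, 1 of 15 members was 1.5-fold higher in LASS2-/-, against 6.57%.

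For genotype, the family's medians lay near 0. On HFD the median ratio of LASS2-/- over WT was 0.07 log2 and on chow -0.03, beside medians over all probe sets of 0.00 and 0.04. The chow ratios depend on the scaling of the arrays: equal array medians moved the median over all probe sets to -0.06 and that of the members to -0.13. Apart from 1449711_at, no member that entered reached 1.5-fold in either diet. At least 1.5-fold higher with the label were 5.57% of all probe sets on HFD and 6.1% on chow, and at least 1.5-fold lower 3.9% and 4.02%. Both arrays labelled LASS2-/- lay above both WT arrays in 2 of 20 probe sets, against 14.3% of all, and below them in 4 of 20, against 13.6%. Among the brighter probe sets these were 2 of 15, against 11.3%, and 2 of 15, against 13.9%. The 4 of 20 that lay below were both entered probe sets of Atp6v1h, 1416769_s_at of Atp6v0b and 1420038_at of Atp6v1e1. The 2 of 20 that lay above were Atp6v0e and 1438993_a_at of Atp6v1d.

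The array labelled LASS2-/- HFD held the highest of the 4 values in 10 of 20 probe sets from 6 genes, against 24.8% of all probe sets, and in 8 of 15 brighter ones, against 23.7%. WT HFD held it in 1 of 20, against 23.4%, LASS2-/- chow in 5, against 28.8%, and WT chow in 4, against 23.0%. This count was taken after the values were seen. The genotype ratio on HFD minus that on chow had a median of 0.14 log2 over the 20 probe sets, above 0 in 14 of them, beside a median of 0.00 over all probe sets. By the brightest probe set of each of the 9 genes it was above 0 in 6 and below 0 in 3. It was 0.29 log2 for 1415814_at of Atp6v1b2, 0.31 for 1422508_at of Atp6v1a and 0.22 for Atp6v0e. The 3 below 0 were -0.16 for Atp6v0d1, -0.21 for 1437013_x_at of Atp6v0b and -0.13 for 1449712_s_at of Atp6v1e1. With 1 array per group these differences could not be tested, and that array also had the highest summed macrophage signal, whose part in the result was not tested.

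**Figure D3:**
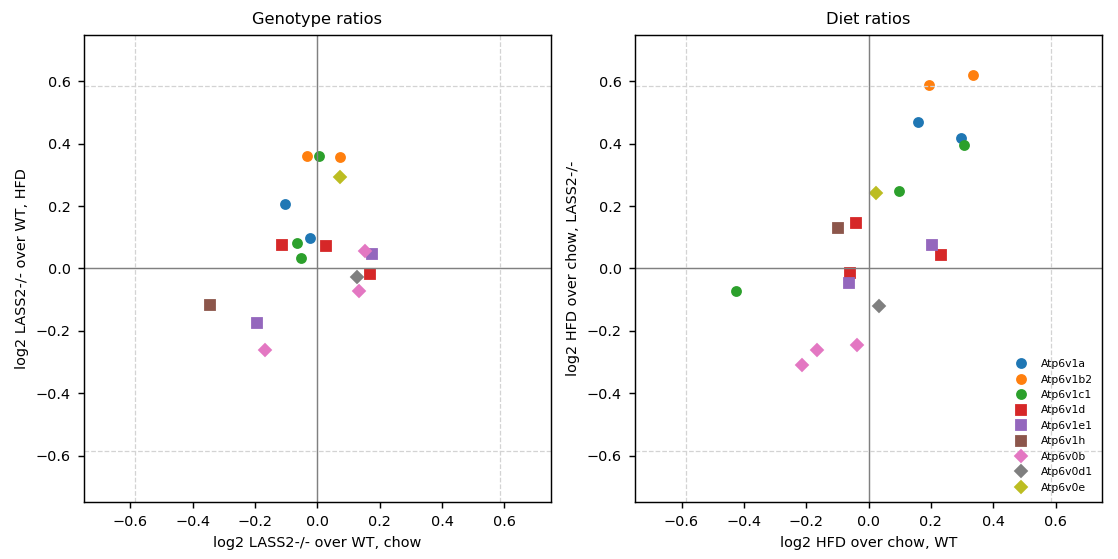
Log2 ratios of LASS2-/- over WT on HFD (vertical) against chow (horizontal) at left, and of HFD over chow in LASS2-/- (vertical) against WT (horizontal) at right, 1 point per probe set with all 4 signals at or above the array median, and dashed lines at 1.5-fold. Atp6v1b2, at up to 0.62 log2 in LASS2-/-, stands at the upper right of the diet ratios and Atp6v0b at the lower left, and 1449711_at of Atp6v1e1 lies off both scales.

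The other subunits and accessory proteins of the pump held Atp6v0d2, called higher with HFD by a dim probe set, and Atp6v1g1, of which 1 of 2 probe sets that entered fell. Of 15 listed genes, 14 had a named probe set and 11 entered by their brightest one, of which 1 rose and 0 fell with HFD, where 5.15% and 4.29% of all genes were called by their brightest probe set. For genotype 0 of 11 passed, where 0.304% and 0.152% of all genes were called higher and lower, and 0 had an unadjusted p under 0.05, while 3 did for diet, against 23.7% of all genes. Over all 18 probe sets of these genes that entered, 1 rose and 1 fell with HFD and 0 passed for genotype. The gene that rose was Atp6v0d2, the alternative d subunit of osteoclasts, macrophages and kidney. Its probe set 1434798_at had log2 signals of 8.11 on LASS2-/- HFD and 8.16 on WT HFD, against 7.15 on LASS2-/- chow and 6.71 on WT chow. The mean of these, 7.53, lay below the upper quartile over all probe sets, 8.50. In simulated data, 35 of 14675 unchanged probe sets below that quartile were called for diet, and 4 of 25 changed by 1.0 log2. A call at such signal is therefore less certain. HFD over chow was 1.95-fold in LASS2-/- and 2.73-fold in WT, a mean rise of 1.21 ± 0.26 log2 (moderated SE; limma adjusted p = 0.012). It passed under 7 of 8 alternatives, with limma adjusted p from 0.00435 to 0.0332, and had adjusted p = 0.43 without a trend in the moderation. A dimmer second probe set, 1444176_at, lay near the array medians, at 6.34 on LASS2-/- HFD, 5.97 on WT HFD, 6.30 on LASS2-/- chow and 4.34 on WT chow. Atp6v0d1, the widespread form of the same subunit, had not separated the diets.

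Beside this rise, 1 of the 10 macrophage markers rose with HFD, Lyz2 by a mean of 0.50 log2 (limma adjusted p = 0.0437, lost under 6 of 8 alternatives). The list's median diet difference was 0.14 log2. By genotype, HFD over chow for Lyz2 was 0.83 log2 in LASS2-/- and 0.17 in WT. The list's median ratio was 0.37 log2 in LASS2-/- and -0.04 in WT. For Atp6v0d2 the ratio was larger in WT, at 1.45 log2, than in LASS2-/-, at 0.96. The part of macrophages in the Atp6v0d2 signal was not tested. Among markers of other resident cells, Col3a1 of the stellate list rose by 1.44 log2 and Cdh5 of the endothelial list by 0.75 log2. Each was the 1 riser among 8 entered genes of its list, where 5.15% of all genes were called higher. The lists' median diet differences were 0.27 and 0.23 log2. In which cells these signals changed was not tested. The stellate marker Des fell (limma adjusted p = 0.00505), to under the array median on both HFD arrays, so that its differences are bounds, of -1.60 log2 or lower in LASS2-/- and -1.33 or lower in WT.

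Among the remaining subunits, the a isoforms anchor the stalk in the membrane. By its brightest probe set, Atp6v0a1 had 7.39 on LASS2-/- HFD and 7.28 on WT HFD, against 6.59 on LASS2-/- chow and 6.70 on WT chow. Its mean diet difference was 0.69 ± 0.32 log2 (moderated SE; limma adjusted p = 0.244). A dimmer probe set of Atp6v0a1, 1459924_at, had 6.28 on LASS2-/- HFD, 6.66 on WT HFD, 7.23 on LASS2-/- chow and 5.93 on WT chow. There the mean diet difference was -0.11 log2 (limma adjusted p = 0.93). Atp6v0a2 and Tcirg1, the a isoform of osteoclasts and immune cells, had 0.03 and 0.06 log2. Atp6v1g1 encodes a stalk subunit. Its brightest probe set, 1423256_a_at, had 12.86 on LASS2-/- HFD and 12.70 on WT HFD, against 12.94 on LASS2-/- chow and 13.16 on WT chow, a mean diet difference of -0.27 log2 (95% interval -0.48 to -0.05, limma adjusted p = 0.144). Its probe set 1423255_at had 11.31 on LASS2-/- HFD and 11.21 on WT HFD, against 11.61 on LASS2-/- chow and 11.86 on WT chow. The HFD arrays lay below the chow arrays in both probe sets, and the second fell by 0.47 log2 (95% interval -0.72 to -0.22, limma adjusted p = 0.0253). This call was lost with equal array medians (limma adjusted p = 0.0901) and without a trend in the moderation (0.45), and it held under 5 of 7 alternatives. Its remaining probe set, 1450926_at, stayed under the array medians. Atp6v1f, the rotor subunit F, had 0.11 log2. The accessory proteins Atp6ap1 and Atp6ap2 (the prorenin receptor) had 0.06 and 0.16 log2. Atp6v1e2 was dim and had 0.45 log2, and Atp6v0e2 and Atp6v1c2 each reached the array median on 1 array only, at most 6.30 log2, and gave no measured difference. Their fitted effects in the plot of the other subunits come from signals near or under the array medians. The kidney and male-tract isoforms Atp6v0a4 and Atp6v1b1, and the neuronal Atp6v1g2, stayed under the array median on all arrays.

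**Figure D4:**
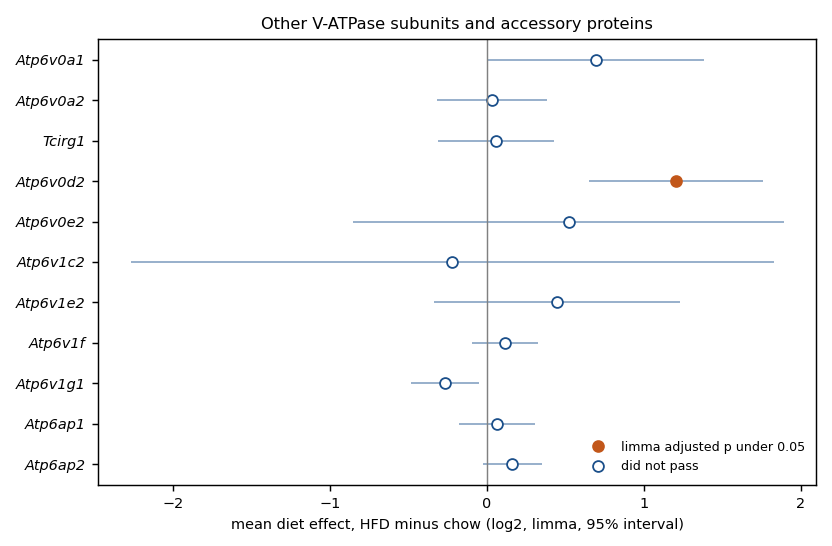
Mean diet effect (HFD minus chow, log2, limma with 95% interval) of the 11 other subunits and accessory proteins that entered, each by its brightest probe set. Atp6v0d2, at 1.21 log2, is the filled point and the 1 gene that passed by its brightest probe set, and the open points run from -0.27 to 0.69.

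Genes that assemble, regulate or work beside the pump did not pass for diet or genotype, by their brightest or any other probe set that entered. Over all genes, 23.7% had an unadjusted p under 0.05 for diet and 10.3% for genotype. Of 10 assembly and regulatory genes 0 passed, with an unadjusted p under 0.05 in 3 for diet and 0 for genotype, and a median diet difference of 0.05 log2. Tmem199, an assembly factor of V0, had 8.95 on LASS2-/- HFD and 8.83 on WT HFD, against 9.49 on LASS2-/- chow and 9.36 on WT chow, a mean diet difference of -0.53 log2 (limma adjusted p = 0.0579). Of 10 Ragulator and Rag genes, which carry the lysosome's nutrient signal to mTORC1 on the pump's surface, 0 passed, with 3 and 0 at an unadjusted p under 0.05. Lamtor1, the membrane anchor of Ragulator, had 12.65 on LASS2-/- HFD and 12.60 on WT HFD, against 12.28 on LASS2-/- chow and 12.37 on WT chow, a mean diet difference of 0.30 log2 (limma adjusted p = 0.0741).

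Of 5 regulators of lysosome genes 0 passed, with 1 for diet and 1 for genotype at an unadjusted p under 0.05. Both were Zkscan3, with a mean diet difference of 0.38 log2 and a mean genotype difference of -0.315 log2 (limma adjusted p = 0.107 and 0.488). Tfeb had 2.98 on LASS2-/- HFD, 6.60 on WT HFD, 5.42 on LASS2-/- chow and 5.54 on WT chow, so that only WT HFD reached the array median. Of 15 lysosomal membrane proteins and ion channels 0 passed, with 3 for diet and 2 for genotype at an unadjusted p under 0.05. Lamp1 and Lamp2, the main lysosomal membrane glycoproteins, had mean diet differences of 0.11 and 0.04 log2 and genotype differences of 0.05 and -0.08 log2. Laptm5, a lysosomal protein of blood cells, had 10.24 on LASS2-/- HFD and 9.72 on WT HFD, against 9.67 on LASS2-/- chow and 9.31 on WT chow. Its mean diet difference was 0.49 log2 and its mean genotype difference 0.44 log2 (limma adjusted p = 0.0546 and 0.31). Laptm5 and Clcn5 were the 2 with an unadjusted p under 0.05 for genotype. For Clcn5 LASS2-/- over WT was 1.23 log2 on HFD and 0.09 on chow (mean 0.66, limma adjusted p = 0.345). The genes named from these 4 lists were chosen after their values were seen.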

How the data were processed

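Liver RNA of 4 groups was measured on 4 Affymetrix 3' expression arrays, 1 per group. The deposited values are log2 signals made by the authors with MAS5, per the submitters' processing notes; its version and scaling target were not given in the sources used here. Detection calls were not used. On the linear scale the arrays had trimmed means of 496.0 to 496.2 (2% trimmed from each tail), so no further scaling was applied. Precision is limited by the number of arrays.

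Of 45037 probe sets, 34945 had 1 gene symbol, 932 several and 9160 none; symbols were updated through Entrez gene numbers. A probe set entered when it reached its array's median on at least 1 array. Ratios were floored at those medians (6.17 for WT chow, 6.28 for LASS2-/- chow and 6.19 for both HFD arrays). A fold of at least 1.5 was counted, without a test.

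Mean effects came from limma 3.58.1 (R 4.3.3) on unfloored values of 26035 probe sets, with 3 coefficients, 1 residual degree of freedom, trended moderation (11.6 prior degrees of freedom) and Benjamini-Hochberg adjustment. The fit was tested on simulated data in which diet changes were set in a small share of the probe sets. At changes of 0.3, 0.5 and 1.0 log2, 3, 7 and 23 of 25 bright probe sets were called, and 0, 0 and 4 of 25 others. Among unchanged probe sets, diet was called in 1 of 11160 bright ones and 35 of 14675 others. SEs rest mostly on probe sets of like signal. The median residual SD of the members was 0.09 log2. Summaries used pandas 2.3.3 and numpy 2.4.6 under Python 3.11.15, and plots matplotlib 3.10.9.

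The members and lists were chosen with earlier results of these data known. Named were all member probe sets, Cers2, every other subunit, up to 4 passing genes per further pathway list, and from each marker list its count, median and up to 2 genes with the largest mean effect. Named outside this rule were Alb, Hnf4a and Lyz2, the dimmer probe sets of Ighm and Marco, and the genes of the further pathway lists. None of these pathway genes passed.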

Additional observations from a re-analysis of the deposited data

Results flagged for a closer look

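Probe set 1449711_at of Atp6v1e1 stood apart because its genotype ratios pointed in opposite directions on the diets, each by more than 1.5-fold. The log2 ratio of LASS2-/- over WT was 2.82 on HFD and -2.05 on chow, a difference of 4.87, which was not tested. Of all probe sets, 189 of 26035 (0.726%) had such opposite ratios.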

How the results depend on the processing

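No paired analysis was possible because the labels carry no replicate numbers and each group has 1 array; leaving out an array would leave no residual degree of freedom. Under all 8 alternatives the number of member probe sets that passed limma stayed at 0 for diet and 0 for genotype; at an unadjusted p under 0.05 it was 4 or 2 for diet, 0 without a trend, and 0 or 1 for genotype. Mean genotype effects close to 0 turned sign with arrays scaled to equal medians: Atp6v0d1 1415671_at became -0.003, Atp6v1c1 1419545_a_at -0.044, Atp6v1a 1422508_at -0.001 and 1450634_at -0.015, Atp6v0b 1437013_x_at -0.022 and Atp6v1d 1438993_a_at -0.003 log2. Of 288 mean effects of single member probe sets under alternatives, these 6 turned and 282 kept their direction and side of the threshold. The median member ratio on chow, -0.028 as deposited, was -0.132 with equal medians and 0.071 with 1 probe set per gene, where 0 members were 1.5-fold lower in LASS2-/- on chow, 0 higher on HFD, 0 lower with HFD in WT and 1 higher with HFD in LASS2-/-. Over all probe sets, 63 higher and 28 lower for genotype became 21 and 13 with quantile normalization, 20 and 17 with equal medians, 117 and 59 without _x_at and _s_at probe sets and 38 and 17 with floored values; 32 were higher with robust moderation and 43 lower with 1 probe set per gene. Those lower with HFD numbered 942 as deposited and 602 with equal medians. Without a trend in the moderation limma called 0 and 0 for genotype and 0 and 0 for diet, where 1481 and 3021 had an unadjusted p under 0.05. The cause was not tested. The calls of Atp6v0d2, Atp6v1g1 and each marker named as risen or fallen were lost without a trend. Lyz2 did not pass for diet under 6 alternatives and for genotype Mpeg1 did not pass with equal medians and Marco not with robust moderation; for diet Fgb did not pass without the filter on low values, and Hnf4a not with quantile normalization, equal medians, no filter or floored values. Depth is set by signal: the residual SD was 0.86 log2 in the dimmest and 0.14 in the brightest of 4 equal groups of probe sets. Differences like those of the dim probe sets could therefore not be resolved. In simulated data, most changes of 0.5 log2 were missed in bright probe sets too. Few probe sets were changed there, which makes the adjusted threshold stricter than in the data.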

Other observations

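Markers of further liver cell types gave the following values, with no explanation tested. With HFD, 5.15% of all genes were called higher and 4.29% lower by their brightest probe set. Of 8 endothelial markers 1 rose with HFD, Cdh5, and the list's median diet and genotype differences were 0.23 and 0.02 log2; Lyve1 had a diet difference of 0.51 log2 (limma adjusted p = 0.153). Of 8 stellate cell markers 1 rose and 1 fell with HFD, Col3a1 and Des, with medians of 0.27 and 0.03 log2. Of 5 named cholangiocyte markers 2 stayed under the array medians and 0 of the other 3 passed, with medians of -0.46 and 0.18 log2; Krt19 reached the array median on WT HFD only, at 6.21 log2, and gave no measured difference, and Sox9, under the median on WT HFD, had genotype ratios of at least 0.74 log2 on HFD and 0.85 on chow (limma adjusted p = 0.47). Of 7 named lymphocyte markers 2 stayed under the medians and 0 of 5 passed by their brightest probe set, with medians of -0.13 and -0.03 log2, and their summed linear signal was 2161 (LASS2-/- HFD), 5801 (WT HFD), 2454 (LASS2-/- chow) and 2458 (WT chow). Among them Ighm, an immunoglobulin heavy chain, had 10.87 log2 on LASS2-/- HFD, 12.41 on WT HFD, 10.95 on LASS2-/- chow and 10.96 on WT chow. A dimmer probe set of Ighm, 1427329_a_at, was called higher with HFD by a mean of 1.03 log2 (limma adjusted p = 0.045). It had 9.20 on LASS2-/- HFD, 10.575 on WT HFD, 9.02 on LASS2-/- chow and 8.69 on WT chow, so its rise lay mostly in WT. Cd3g reached the array median only on WT chow, with 7.11 log2, and its diet ratio there is a bound of -0.92 log2 or lower. Of 4 named neutrophil markers 0 passed, with medians of 0.48 (0.475) and 0.05 log2; S100a8 had a genotype difference of 0.83 log2 (limma adjusted p = 0.14) and Csf3r, under the median on LASS2-/- chow, had diet ratios of at least 0.875 log2 in LASS2-/- and 0.35 in WT (limma adjusted p = 0.232). Of 3 named erythroid markers 1 entered, Alas2, with a diet difference of -0.21 and a genotype difference of -0.30 log2, and it did not pass.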
